A study of Mus musculus with 26 samples.

Results

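Mice that escalated their cocaine intake were compared with mice that did not, in RNA purified with the tagged ribosomes of Drd2-expressing striatal neurons. The comparison holds 6 of the 26 libraries of the series: the 2 immunopurified libraries titled as the escalating group of cocaine self-administration and the 4 titled as the nonescalating group without withdrawal. A gene was read as separating the groups where both escalating libraries lay on the same side of all 4 nonescalating libraries. All 6 came from dorsal striatum of adult Drd2-TRAP mice (animal line CP101, carrying Drd2-EGFP/Rpl10a; FVB/N-Swiss Webster strain crossed to C57BL/6 for at least 9 generations) that gave themselves cocaine intravenously in long-access sessions. The other 17 immunopurified libraries, used for the spread and as background, came from mice of the same line after saline (3), after saline and withdrawal (5) and after nonescalating cocaine intake and withdrawal (9). Another 3 libraries of unpurified input were not used. The labels give neither age in days, sex, session length, intake, nor the time of tissue collection, and they do not say whether each library is a separate animal, so that a p-value reflects only how far these 6 and the other libraries scatter, which may be technical. The titles mark all 6 as copies of lower library numbers, a mark of a meaning not given in the sources used here.

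TRAP, translating ribosome affinity purification, pulls out the ribosomes of a chosen cell type through a tagged ribosomal protein. Here the tag, EGFP on Rpl10a, is made wherever the Drd2 regulatory sequence of the transgene is active, which in dorsal striatum means the medium spiny neurons of the indirect pathway and also cholinergic interneurons. Cocaine blocks the reuptake of dopamine. Escalation is the growth of daily intake that some animals show under long access, and stable intake is the comparison that holds drug exposure by the same route. In striatal neurons dopamine and glutamate act through cyclic AMP, CREB and the MAP kinases on immediate early genes such as Fos and Arc, which are transcribed within minutes of stimulation and are widely used as marks of recent activity, and on feedback inhibitors such as the MAP kinase phosphatases. In bulk RNA, more cells of a type and more RNA per cell cannot be told apart.

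No gene passed the test. Of 16910 genes tested, edgeR's quasi-likelihood test with Benjamini-Hochberg adjustment called 0 higher and 0 lower in escalating libraries (0% each at an adjusted p under 0.05). At an unadjusted p under 0.05 there were 291 genes with higher values (1.72%) and 267 with lower values (1.58%), of which 164 and 115 separated the groups. Levels are counts scaled to library size (CPM). Over all tested genes both escalating libraries lay above all 4 nonescalating libraries for 840 (4.97%) and below for 590 (3.49%), and 48.4% of fitted fold changes were positive. Among the 10674 genes averaging 5 CPM or more, the shares were 4.99% above (533 genes) and 4.15% below (443 genes). These shares are the background for every count of separated genes below. DESeq2 called 5 higher (0.0297% of 16814 genes) and 6 lower (0.0357%), and limma voom with library weights called 0. Among separated genes at that level Usp27x had the lowest p.

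Of the 3 genes singled out for this comparison, Usp27x and Fos met the separation rule and Arc did not. Usp27x encodes an X-linked deubiquitinase, an enzyme that removes ubiquitin from proteins (chrX:7371276-7375830, minus strand, GRCm38). Its level was 14.4, 19.3, 20.4 and 29.3 CPM in nonescalating replicates 1 to 4, and 70.7 and 124 CPM in escalating replicates 1 and 2. Both escalating libraries stood well above the 4, and above all 21 other immunopurified libraries, whose highest value was 39.1 CPM. The log2 fold change was 2.22 ± 0.40 (SE, 95% interval 1.40 to 3.04), with an adjusted p of 0.0934 by edgeR's quasi-likelihood test. DESeq2 gave an adjusted p of 0.000449 and called it, and so did the edgeR fit with the share of reads outside genes as a covariate (adjusted p = 0.0256). Limma voom with library weights did not call it (adjusted p = 0.508). Nor did edgeR's quasi-likelihood test with RLE factors (adjusted p = 0.115) or with the 6 libraries alone (adjusted p = 0.999). Saline libraries held 27.5 to 37.2 CPM, so nonescalating libraries 1 to 3 lay below the saline range while both escalating libraries lay above it.

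Arc encodes a synaptic protein that takes part in the removal of AMPA receptors (chr15:74669083-74672570, minus strand). Nonescalating replicates 1 to 4 held 23, 24.4, 15.4 and 79.7 CPM, and escalating replicates 1 and 2 held 162 and 51.6 CPM. Escalating replicate 2 thus lay under nonescalating replicate 4, and the groups overlapped. The log2 fold change was 1.58 ± 0.84, with an unadjusted p of 0.0713 by edgeR's quasi-likelihood test. It was 0.54 without escalating replicate 1, 2.19 without escalating replicate 2 and 2.36 without nonescalating replicate 4. Nonescalating libraries after withdrawal reached 153 CPM, nearly the level of escalating replicate 1.

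Fos, a subunit of the AP-1 transcription factor (chr12:85473890-85477273, plus strand), was at 0 in nonescalating replicates 1 to 3 and at 1.70 CPM in replicate 4. It was at 10.7 and 1.75 CPM in escalating replicates 1 and 2. The groups separated, but escalating replicate 2 and nonescalating replicate 4 were nearly equal, and the whole comparison rests on 199 counts in the escalating and 16 in the nonescalating libraries. The log2 fold change was 3.81 ± 1.63 (unadjusted p = 0.0289, adjusted p = 1 by edgeR's quasi-likelihood test). It was 1.98 without escalating replicate 1. All 16 nonescalating counts were in replicate 4. Against the other 3 libraries, at 0, the pooled escalating level was at least 48.2-fold higher, taking 3 counts over those libraries as the floor. That bound leaves out replicate 4, and it rests mostly on escalating replicate 1, which held 166 of the 199 escalating counts. Saline libraries after withdrawal held 1.64 to 4.24 CPM, so escalating replicate 2 lay inside their range.

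**Figure D1:**
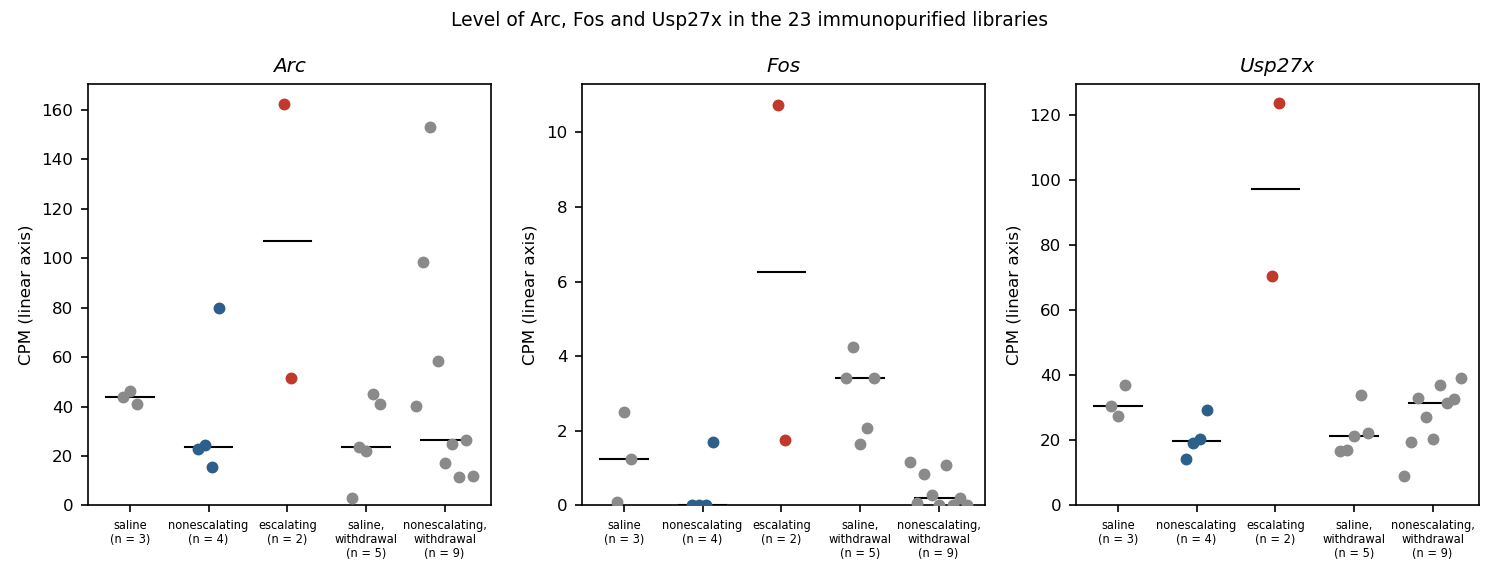
CPM of Arc, Fos and Usp27x (linear axes) in each of the 23 immunopurified libraries, by group; lines are medians. Usp27x in the 2 escalating libraries (70.7 and 124 CPM) lies above all other libraries, while 1 escalating library lies within the range of other groups for Arc (51.6 CPM) and for Fos (1.75 CPM).

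The stretches of 250 bases before the RefSeq starts of Fos, Dusp1 and Usp27x show how these genes differ in one well-known sequence feature of activity-regulated genes, the cyclic AMP response element bound by CREB. They are RefSeq sequences (GRCm38.p6), written 5′ to 3′ on the strand of the gene, with the element's 5-letter core in capitals, that is TGACG or, on the other strand, its reverse complement CGTCA. Fos and Dusp1 stand for activity-regulated genes that separated the groups, and Usp27x for the gene with the clearest separation. The RefSeq start of Dusp1 lies inside the longer GENCODE span given for that gene below.
Fos (chr12:85473640-85473889, plus strand): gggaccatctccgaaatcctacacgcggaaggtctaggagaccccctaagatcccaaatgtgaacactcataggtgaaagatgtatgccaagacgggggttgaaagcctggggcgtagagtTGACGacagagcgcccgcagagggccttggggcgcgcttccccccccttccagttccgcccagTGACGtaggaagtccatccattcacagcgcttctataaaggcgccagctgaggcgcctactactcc
Dusp1 (chr17:26508473-26508722, minus strand): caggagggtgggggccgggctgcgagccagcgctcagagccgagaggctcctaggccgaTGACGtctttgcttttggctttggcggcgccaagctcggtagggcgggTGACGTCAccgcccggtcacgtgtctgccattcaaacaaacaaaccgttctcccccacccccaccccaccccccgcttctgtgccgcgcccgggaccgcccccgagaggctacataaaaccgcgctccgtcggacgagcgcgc
Usp27x (chrX:7375831-7376080, minus strand): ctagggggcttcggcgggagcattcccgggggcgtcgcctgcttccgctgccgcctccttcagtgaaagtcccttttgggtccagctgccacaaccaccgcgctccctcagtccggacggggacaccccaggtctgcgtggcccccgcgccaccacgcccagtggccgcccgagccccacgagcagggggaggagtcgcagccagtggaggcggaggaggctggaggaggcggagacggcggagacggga
The Fos stretch held 2 cores, which begin 129 and 66 bases before the start. The Dusp1 stretch held 3, beginning 191, 143 and 140 bases before the start, the last 2 of which overlap and form the full palindrome TGACGTCA. The Usp27x stretch held none. Of 32851 promoters of the same length, 17.8% held a core on either strand and 1.55% the full palindrome. Of the 33 rapid immediate early genes 25 had a promoter in the table, and 2 of those held the full palindrome. A match is a description of the letters and not evidence of binding.

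Gene lists are counted over the members that passed the filter on low counts, all but 0 to 3 of each list. Among 33 rapid immediate early genes, 22 had a positive fold change, with a median log2 fold change of 0.30 (middle 50% from -0.47 to 0.78) against -0.02 over all tested genes (-0.47 to 0.37). The list's median was 0.086 without escalating replicate 1, 0.38 without escalating replicate 2 and 0.59 without nonescalating replicate 3. Both escalating libraries lay above all 4 nonescalating libraries for 5 of the 33 and below for 1, and none of the 33 was called. Apart from Fos, the 4 above were Nr4a1, Egr2, Junb and Trib1, named here after their values were seen. Nr4a1, an orphan nuclear receptor induced by activity, was at 50.4, 48.5, 37.9 and 25.3 CPM in nonescalating replicates 1 to 4 and at 144 and 56.3 CPM in the escalating libraries. Egr2, a zinc finger transcription factor, was at 11.4 to 17.2 CPM in the 4 and at 32.6 and 19.1 CPM in the 2. Junb, an AP-1 partner of Fos, was at 8.49 to 13.9 CPM in the 4 and at 18.0 and 21.6 CPM in the 2. Their unadjusted p by edgeR's quasi-likelihood test ran from 0.163 to 0.317. For these 4 and for Fos, the lower escalating value lay inside the range of the saline libraries without withdrawal. That range was 41.2 to 71.3 CPM for Nr4a1, 12.5 to 22.1 CPM for Egr2 and 9.52 to 18.1 CPM for Junb. The gene below was Amigo3, at 0.883 to 2.72 CPM against 0.388 and 0.106 CPM.

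Escalating replicate 1 exceeded replicate 2 for 21 of the 33 genes, against 45.2% of all tested genes. It lay above all 4 nonescalating libraries for 14 of the 33 genes and escalating replicate 2 for 9, where 21.5% and 16.5% of all tested genes did so. Egr1, which encodes a zinc finger transcription factor, was at 1021, 1378, 550 and 788 CPM in nonescalating replicates 1 to 4 and at 2542 and 1004 CPM in the escalating libraries. Escalating replicate 2 lay within the nonescalating range. Npas4, the activity-dependent transcription factor, was at 2.40, 1.64, 0.572 and 23 CPM against 23.1 and 13.5 CPM, and overlapped through nonescalating replicate 4, the library that was also highest for Arc and Fos. Atf3, a stress-induced transcription factor, was at 4.72 CPM in nonescalating replicate 3 and at 0 to 0.319 CPM in the other 5 libraries. Fosb, Egr3 and Homer1 had log2 fold changes of 0.30, -0.02 and 0.16. The list thus held members at both ends of the range, with Fos at 3.81 and Atf3 at -4.92.

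Of 26 delayed activity-regulated genes, 17 had a positive fold change (median 0.14), and 3 separated the groups upwards and 0 downwards. The median was 0.063 without escalating replicate 1 and 0.28 without replicate 2. Rgs2, which limits signalling of G proteins, was at 230, 171, 91.7 and 135 CPM in the nonescalating libraries and at 331 and 238 CPM in the escalating ones. Spry2, an inhibitor of growth factor signalling to ERK, was at 64.9 to 149 CPM against 216 and 187 CPM, with a log2 fold change of 0.97 ± 0.46 and an unadjusted p of 0.0465 by edgeR's quasi-likelihood test. Tiparp, a mono-ADP-ribosyltransferase, was at 0.379 to 7.57 CPM against 11.5 and 15.6 CPM. Nptx2, a secreted pentraxin that gathers AMPA receptors, was at 16.5 CPM in escalating replicate 2 and at 6.34 CPM in replicate 1, the latter inside the nonescalating range of 3.30 to 7.0 CPM.

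Feedback on the MAP kinases was represented by 10 measured dual-specificity phosphatases, of which 8 had a positive fold change (median 0.05) and 2 separated the groups. The median was -0.17 without escalating replicate 1 and 0.41 without replicate 2. Dusp1, which removes phosphate from ERK, JNK and p38 in the nucleus (chr17:26505590-26562128, minus strand), was at 91.6, 79.5, 59.6 and 79.9 CPM in nonescalating replicates 1 to 4. It was at 239 and 101 CPM in the escalating libraries. The log2 fold change was 1.13 ± 0.39 (unadjusted p = 0.0082, adjusted p = 1 by edgeR's quasi-likelihood test), and 0.38 without escalating replicate 1. Nonescalating libraries after withdrawal reached 206 CPM, so escalating replicate 1 lay above the other immunopurified libraries and replicate 2 within their range. Dusp6, the cytoplasmic phosphatase of ERK, was at 14.5 to 30.2 CPM against 53.2 and 34.1 CPM, with a log2 fold change of 1.06 ± 0.56. Dusp10 and Dusp16, which act mainly on JNK and p38, were fitted in the other direction (-3.09 and -1.32) with overlapping libraries.

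Of 26 genes of the MAP kinase cascade, 17 had a positive fold change (median 0.04) and 2 separated the groups, both upwards. Of 19 genes of CREB and its partners, 10 had a positive fold change and 0 separated the groups. Escalating replicate 1 was above all 4 nonescalating libraries for 9 of those 19 genes, and escalating replicate 2 for 0. Over all tested genes the shares were 21.5% and 16.5%.

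Similar numbers of circadian clock genes lay above all 4 nonescalating libraries in each escalating library, though only in part the same genes. The clock is a loop in which Clock and Arntl drive the Per and Cry genes, whose proteins shut it off, and several of its genes also respond to cyclic AMP. Of 20 genes, 15 had a positive fold change (median 0.25, middle 50% from 0.00 to 0.65), 6 separated the groups upwards, 0 separated them downwards and none was called. Escalating replicate 1 lay above all 4 for 9 of the 20 and replicate 2 for 10, the 6 separated genes being shared. Over all tested genes the shares were 21.5% for replicate 1, 16.5% for replicate 2 and 4.97% for both. The list's median was 0.26 without escalating replicate 1 and 0.24 without replicate 2.

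Per2, a repressor of the clock (chr1:91415982-91459324, minus strand), was at 85.0, 105, 131 and 54.0 CPM in nonescalating replicates 1 to 4 and at 206 and 175 CPM in escalating replicates 1 and 2. The 2 escalating values were above those of all 21 other immunopurified libraries, a position held by 38 of all tested genes (0.225%; another 14, 0.0828%, lay below all 21). Saline libraries held 63.3 to 84.2 CPM. The log2 fold change was 1.02 ± 0.42 (95% interval 0.15 to 1.89; unadjusted p = 0.0235, adjusted p = 1 by edgeR's quasi-likelihood test).

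Bhlhe40 and Bhlhe41 encode repressors that act on the same promoter elements as Clock and Arntl. Bhlhe40 was at 79.7, 42.6, 115 and 77.1 CPM against 170 and 118 CPM (0.88 ± 0.39), the lower escalating value being just above nonescalating replicate 3. The highest saline library without withdrawal held 129 CPM of Bhlhe40, above that lower value. Bhlhe41 was at 112 to 149 CPM against 258 and 165 CPM (0.72 ± 0.47). Hlf and Tef, output transcription factors of the clock, also separated the groups. Hlf was at 531 to 707 CPM against 1428 and 717 CPM, the lower escalating value lying just above nonescalating replicate 1. Tef was at 237 to 278 CPM against 321 and 311 CPM, and Csnk1d, a kinase that marks Per proteins for destruction, at 158 to 177 CPM against 199 and 195 CPM.

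The other clock members did not separate the groups. Arntl had the lowest fitted log2 fold change of the list, -0.95 ± 0.55, with 35.9, 35.7, 6.29 and 21 CPM in the 4 libraries and 8.55 and 16.9 CPM in the 2. Per1, which also counts among the immediate early genes, was at 194 to 218 CPM against 428 and 211 CPM. Cry1 was at 16.7 to 24.1 CPM against 17.2 and 49.5 CPM, so that the escalating library at the top was replicate 1 for Per1 and replicate 2 for Cry1. Clock, Nr1d1, Nr1d2 and Dbp had log2 fold changes of -0.07, -0.04, 0.02 and -0.26, all overlapping.

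**Figure D2:**
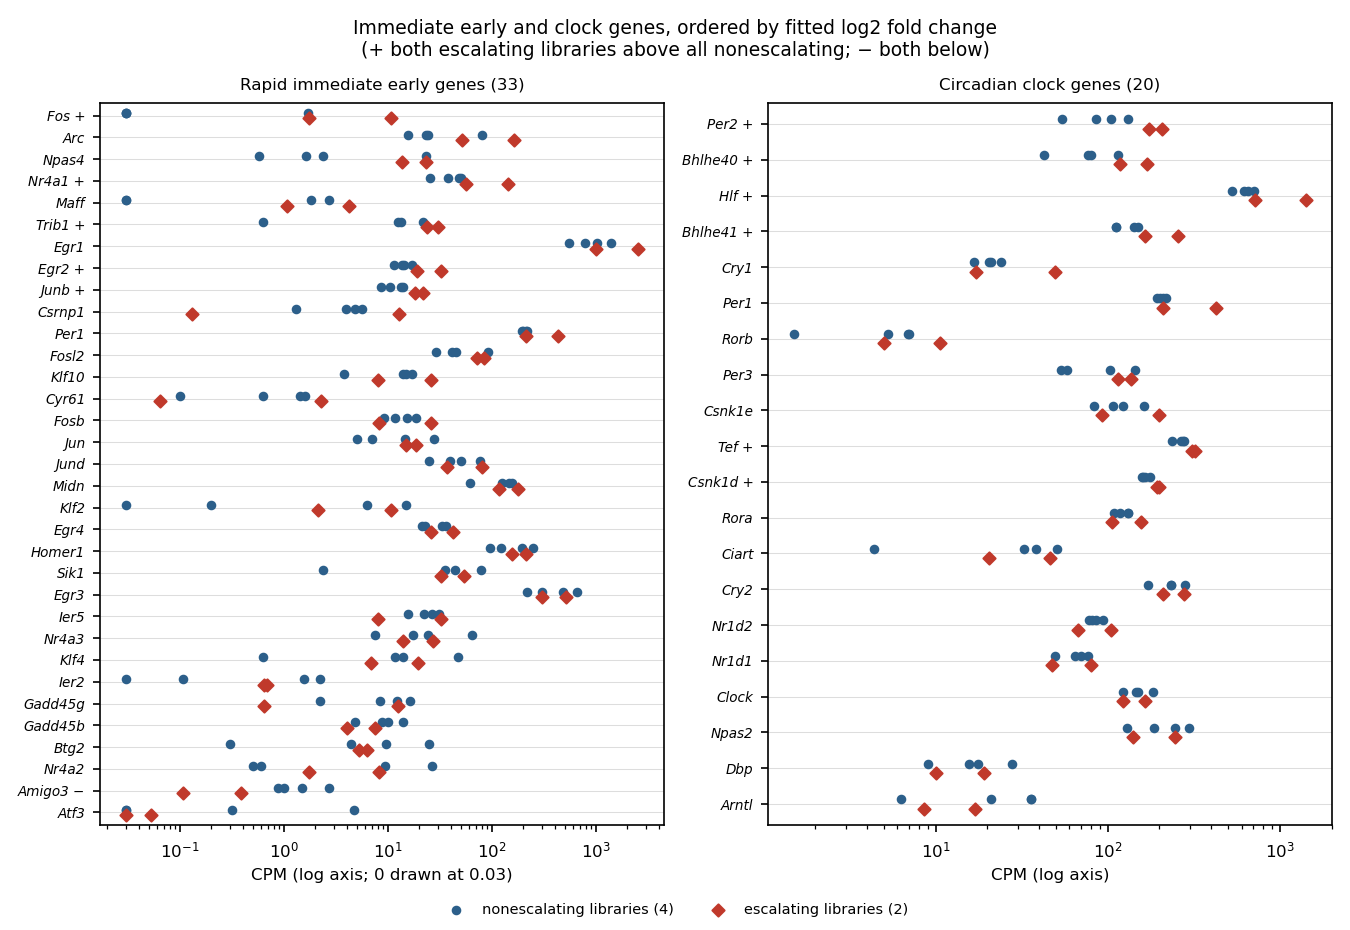
CPM (log axes) of 33 rapid immediate early genes and 20 circadian clock genes in the 4 nonescalating (circles) and 2 escalating libraries (diamonds), ordered by fitted fold change. Diamonds lie to the right of all circles for 5 immediate early genes and 6 clock genes, marked with a plus, and to the left for 1 immediate early gene, marked with a minus.

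Usp27x belongs to the ubiquitin-specific proteases, and the family as a whole was balanced. Of 41 measured members 23 had a positive fold change (median 0.05), 2 separated the groups upwards and 1 downwards. Besides Usp27x, Usp10, a deubiquitinase of p53 among other targets, was at 45.6, 23.7, 28.2 and 44.1 CPM against 60.1 and 64.1 CPM (0.81 ± 0.35, unadjusted p = 0.0293 by edgeR's quasi-likelihood test). Usp19, named after its values were seen, was at 70.9 to 117 CPM against 55.2 and 68.1 CPM.

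The 10 genes with the lowest p among those lying above all 4 nonescalating libraries, averaging 5 CPM or more and not named as clones, predicted genes or opposite-strand transcripts, differed in how evenly the 2 escalating libraries shared the difference. Srgap1, a GTPase-activating protein of Slit and Robo signalling, was high in both, at 266, 150, 140 and 171 CPM against 395 and 553 CPM (1.38 ± 0.34). Both values exceeded all 21 other immunopurified libraries, the highest of which held 369 CPM. Atg2a, a lipid transfer protein of autophagy, was likewise high in both, at 46.2 to 80.0 CPM against 149 and 106 CPM (0.86 ± 0.26). Trp53, which encodes the tumour suppressor p53, was at 28.5, 48.6, 68.6 and 45.1 CPM against 82.5 and 243 CPM (1.77 ± 0.37; adjusted p = 0.298 by edgeR's quasi-likelihood test and 0.0382 by DESeq2). Both values were above all 21, but unevenly so, and the log2 fold change was 0.79 without escalating replicate 2 and 2.35 without replicate 1.

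The others rested mostly on 1 of the 2 libraries. Preb, a guanine nucleotide exchange factor of the endoplasmic reticulum exit sites, was at 38.0, 40.1, 44.7 and 31.2 CPM in the 4. It was at 462 CPM in escalating replicate 1 and at 53.6 CPM in replicate 2 (2.74 ± 0.50; adjusted p = 0.0934 by edgeR's quasi-likelihood test and 0.00331 by DESeq2), and its log2 fold change was 0.48 without replicate 1. Cnot7, a deadenylase of messenger RNA, was at 107 to 146 CPM against 159 and 623 CPM. Mrps14, of the small mitochondrial ribosomal subunit, was at 14 to 21.1 CPM against 23.2 and 85.2 CPM, and the splicing factor Rbm10 was at 42.3 to 57.6 CPM against 62.2 and 147 CPM. For these 3 the high library was escalating replicate 2. Camkmt, which methylates calmodulin, was at 6.90 to 17 CPM against 60.7 and 17.2 CPM, and Prr36 at 10.7 to 23.5 CPM against 102 and 31.9 CPM, with escalating replicate 1 the higher.

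Of the 5 genes that DESeq2 called higher, 2 did not separate the groups. They are named here after their values were seen. Gm7854, a predicted gene, was at 0 to 1.10 CPM in the nonescalating libraries, at 0.194 CPM in escalating replicate 1 and at 264 CPM in replicate 2. Ttc27 was at 10.3 to 21.8 CPM in the nonescalating libraries, at 4.79 CPM in escalating replicate 1 and at 566 CPM in replicate 2. Usp27x, Preb and Trp53 were the other 3. Of the 6 genes DESeq2 called lower, Slc27a1 was the one with counts in the escalating libraries, and the other 5 were at 0 in both. Among those 5 the opposite-strand transcript Ttc39aos1, also named after its values were seen, lay below all 4 nonescalating libraries, at 12.6, 30.3, 0.715 and 1.38 CPM (unadjusted p = 0.00174 by edgeR's quasi-likelihood test).

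By the same choice, the 10 genes with the lowest p among those lying below all 4 nonescalating libraries were fitted at log2 fold changes between -1.19 and -3.16, none with an adjusted p under 1 by edgeR's quasi-likelihood test. Slc27a1, a fatty acid transporter, was at 42.5, 46.2, 21.4 and 27.3 CPM against 5.24 and 8.58 CPM (-2.31 ± 0.58; DESeq2 adjusted p = 0.0434). Both escalating libraries were far under the 4, though 2 of the 3 saline libraries, at 19.3 and 12.2 CPM, were also under the 4. Ints2, a subunit of the Integrator complex, was at 22.5, 82.9, 30.9 and 21.3 CPM against 8.03 and 14.6 CPM. Bmp6, a ligand of the bone morphogenetic protein family, was at 31.2, 14.6, 27.4 and 5.32 CPM against 1.94 and 2.43 CPM (-3.16 ± 1.04). Gab2, an adaptor of receptor tyrosine kinases, was at 24.1 to 51.9 CPM against 12.7 and 22.5 CPM, and Cep85, a centrosomal protein, at 17.4 to 23.1 CPM against 6.54 and 4.92 CPM. Gab2, Cep85 and Donson lay below all 21 other immunopurified libraries. The remaining genes were Slc41a2, Casz1, Tbc1d22a, Donson and Rdh13.

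**Figure D3:**
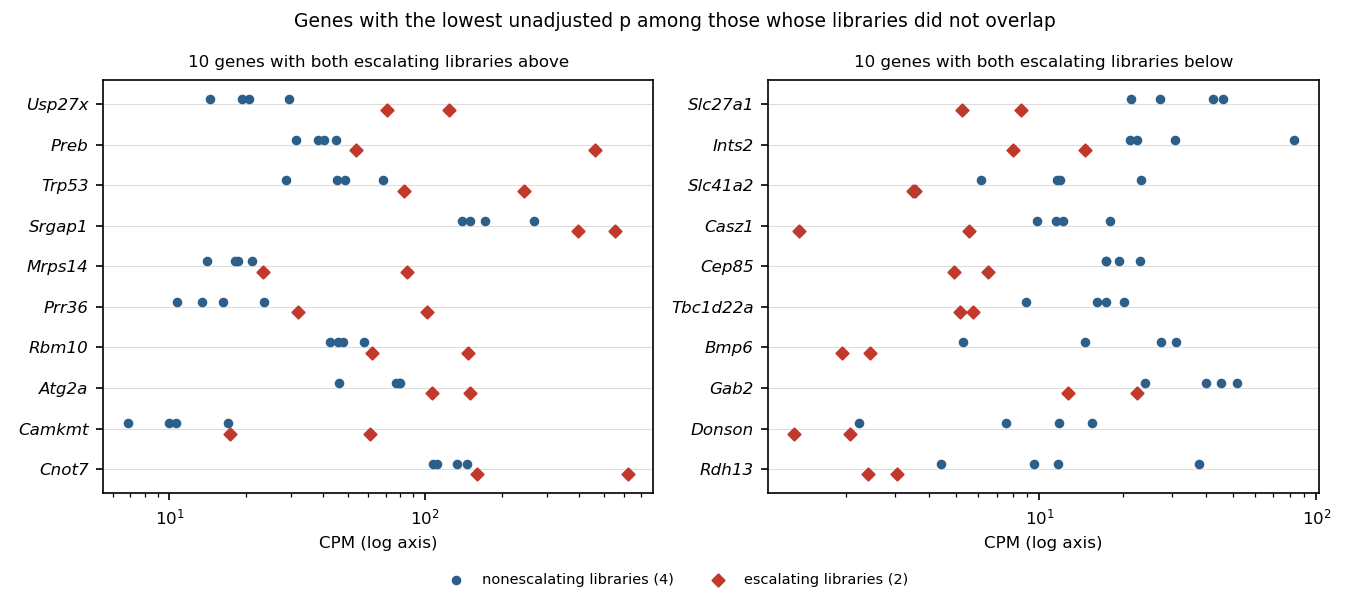
CPM (log axes) in the 4 nonescalating (circles) and 2 escalating libraries (diamonds) of the 10 genes of lowest unadjusted p in each direction among genes that separated the groups, averaged 5 CPM or more and were not named as clones, predicted genes or opposite-strand transcripts. The 2 diamonds lie near each other for Srgap1 (395 and 553 CPM) and far apart for Preb (462 and 53.6 CPM).

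None of the 12 markers of the indirect-pathway neurons separated the groups. Drd2 was at 6694, 4303, 1841 and 3458 CPM in the nonescalating and at 8873 and 2485 CPM in the escalating libraries (0.48 ± 0.63), so its spread within each group was several-fold. Adora2a, an adenosine receptor of the same neurons, was at 849 to 1978 CPM against 2162 and 1803 CPM, and Penk, the enkephalin precursor, at 2797 to 5552 CPM against 6255 and 3934 CPM. Drd1, the receptor of the direct-pathway neurons, was at 16.2 to 33.1 CPM against 32.1 and 34.3 CPM, and Chat of the cholinergic interneurons at 8.09 to 15.5 CPM against 21.4 and 8.47 CPM. Of 12 indirect-pathway markers 7 had a positive fold change (median 0.12) and 0 separated the groups. Escalating replicate 1 lay above all 4 nonescalating libraries for 5 of the 12 and replicate 2 for 0, where 21.5% and 16.5% of all tested genes did so. Of 20 markers of all medium spiny neurons 1 separated the groups, Arpp19, at 279 to 522 CPM against 633 and 611 CPM. Of 9 cholinergic interneuron markers 4 had a positive fold change (median -0.16) and 2 separated the groups upwards. These were Slc5a7, the choline transporter, at 6.81 to 13.5 CPM against 19.6 and 14.1 CPM, and Lhx8, at 0.126 to 2.77 CPM against 3.11 and 3.60 CPM. Arpp19, Slc5a7 and Lhx8 were named after their values were seen. Isl1, 1 of 5 cholinergic markers with a negative fold change, was at 0, 2.65, 2.57 and 1.81 CPM in nonescalating replicates 1 to 4. It was at 0 and 0.371 CPM in the escalating libraries, which overlapped the nonescalating ones.

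Genes of synapse and excitability had list medians near 0. The lists of ionotropic glutamate receptors (23 genes), synaptic vesicle release (30), potassium channels (32) and sodium, calcium and HCN channels (27) had medians of 0.12, 0.12, 0.13 and 0.08. In the same order 0, 1, 3 and 3 of their genes separated the groups upwards and 1, 0, 2 and 0 downwards. Without escalating replicate 1 all 4 medians were negative, at -0.33, -0.15, -0.18 and -0.14, and without replicate 2 they were 0.34, 0.28, 0.41 and 0.31. Pde4d, a phosphodiesterase that degrades cyclic AMP, was the member of lowest p among 35 dopamine and cyclic AMP genes, at 48.1 to 63.6 CPM against 126 and 92.8 CPM (0.94 ± 0.37, unadjusted p = 0.019 by edgeR's quasi-likelihood test). Kcnd3, an A-type potassium channel subunit, was at 26.9 to 48.1 CPM against 82.0 and 54.2 CPM. Grin3a, an NMDA receptor subunit, was at 4.57 to 6.28 CPM against 1.49 and 2.97 CPM, and Gabbr2, a subunit of the GABA-B receptor, at 60.9 to 107 CPM against 57.1 and 34.5 CPM. Mtor, the growth-control kinase, was at 194, 359, 209 and 217 CPM against 175 and 116 CPM (-0.75 ± 0.32). For Pde4d, Kcnd3, Gabbr2 and Mtor, 1 escalating value lay inside the range of the saline libraries without withdrawal. In the same order those ranges were 60.6 to 101, 33.6 to 69.8, 37.6 to 86.4 and 166 to 186 CPM.

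Housekeeping and stress lists had medians between -0.27 and 0.14. Of 75 genes of oxidative phosphorylation 53 had a positive fold change (median 0.14) and 3 separated the groups upwards. Of 75 cytosolic ribosomal protein genes 33 did (median -0.07) and 0 separated the groups in either direction. Of 31 heat shock and chaperone genes 10 were positive (median -0.12), with Hspa4 at 278 to 428 CPM against 220 and 266 CPM, and of 25 unfolded protein response genes 9 were positive (median -0.27). Of 23 cholesterol synthesis genes 7 were positive (median -0.20). Its members Mvk and Fdps separated the groups in opposite directions. Mvk was at 2.02 to 8.40 CPM against 12 and 18.0 CPM, and Fdps at 7.72 to 18.4 CPM against 5.24 and 5.51 CPM. The lower escalating value of Mvk and both of Fdps lay inside the ranges of the saline libraries without withdrawal. Those ranges were 8.44 to 13.2 CPM for Mvk and 4.98 to 9.43 CPM for Fdps. Of 16 glucocorticoid-responsive genes 7 were positive, and 0 separated the groups.

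**Figure D4:**
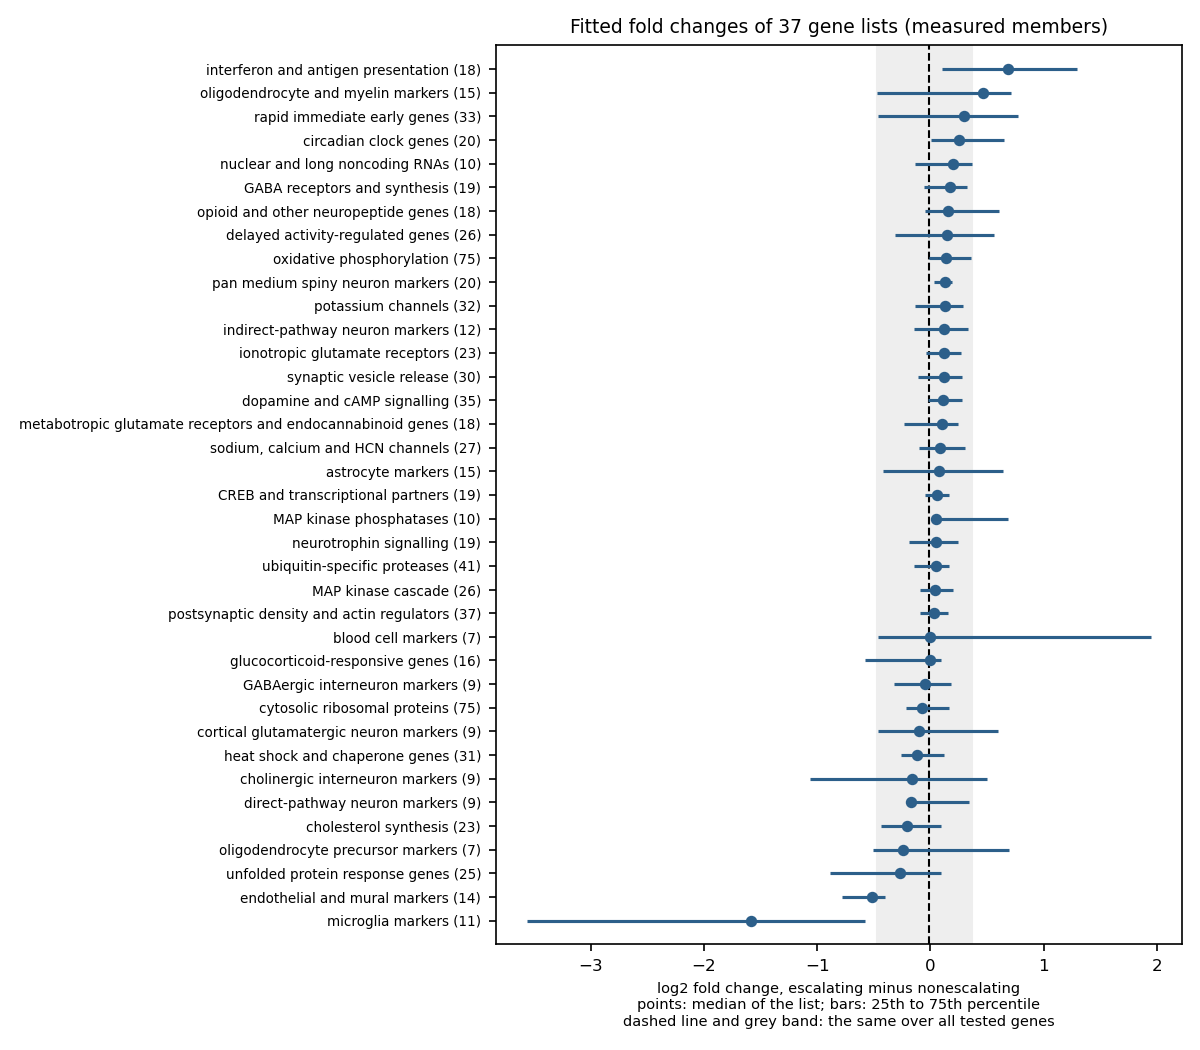
Median fitted log2 fold change (points) and middle 50% (bars) of the measured members of 37 gene lists, escalating minus nonescalating; the dashed line and grey band give the same over 16910 tested genes. Medians run from -1.59 for microglia markers to 0.68 for interferon and antigen presentation genes.

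Markers of other cells varied widely between libraries of 1 group. The summed level of 14 endothelial and mural markers ran from 349 to 5750.1 CPM in the nonescalating and from 999 to 2187 CPM in the escalating libraries, and 1 of the 14 had a positive fold change (median -0.52). Without nonescalating replicate 3, which held the highest sum, the median was 0.72. The 11 microglia markers summed to 10.8 to 41.0 CPM in the nonescalating and to 3.0 and 9.7 CPM in the escalating libraries, so both escalating sums were the lower. Saline libraries without withdrawal summed to 4.01 to 35.6 CPM, and 1 of the 11 markers averaged 5 CPM or more. Tmem119 was at 0 in all 6 libraries, and C1qb and Trem2 in both escalating ones. C1qb was also at 0 in nonescalating replicates 1 and 2. Aif1, named after its values were seen, went the other way, at 0 in all 4 nonescalating libraries and at 0.194 and 1.06 CPM in the escalating ones. The 15 astrocyte markers summed to 737 to 1622 CPM against 1023 and 1083 CPM, and the 15 oligodendrocyte and myelin markers to 256 to 369 CPM against 304 and 492 CPM. Of 18 interferon and antigen presentation genes 15 had a positive fold change (median 0.68), with 2 separating the groups. The list's median was -0.49 without escalating replicate 2. The part of these cells in the results above was not tested.

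Depth differed between the groups. The escalating libraries held 19122303 and 17373355 gene counts, and the nonescalating ones 6564551 to 11793565 (two-sided exact permutation test, p = 0.133, the smallest that 2 against 4 libraries allow). The share of aligned reads outside genes was 32.8% and 34.1% in the escalating and 21.2% to 45.0% in the nonescalating libraries (exact permutation p = 0.933). No library repeated another of its own group: the chi-square per degree of freedom was 181 between the escalating libraries and 41.5 to 129 between pairs of nonescalating ones. Escalating libraries were not compared with nonescalating ones in this way. Of the 10674 genes averaging 5 CPM or more, 24.0% differed by more than 2-fold (on CPM + 1) between the escalating libraries, within the 13.5% to 35.5% found between pairs of nonescalating libraries.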

How the data were processed

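The authors deposited raw counts of reads per gene symbol, 1 table a library, with no normalization. Alignment used STAR 2.0.0e with mm10 (GRCm38), and counting used HTSeq, per the submitters' processing notes. With annotation release, strand setting and kit not given in the sources used here, overlapping or antisense genes may share reads. The 2 annotations among the tables were joined by symbol (31979 genes, 99.5% to 99.9% of each library's gene counts), and entries without a gene name served for read shares alone. One edgeR 4.0.16 quasi-likelihood fit (R 4.3.3, TMM, filterByExpr, Benjamini-Hochberg) held all 23 immunopurified libraries, 5 groups and the library set, with 17 residual degrees of freedom. CPM use library sizes scaled by TMM, and SE come from the test. Library measures were compared by exact permutation (scipy 1.17.1). Named genes are Arc, Fos and Usp27x, 5 cell type checks, the 10 of lowest p in each direction that separated the groups, and the members of lowest p of 37 gene lists (6 a list for activity genes, 2 for others), some of which are not reported here. The members, lists and rules were chosen with earlier results of these data known. Alternatives were DESeq2 1.42.0, limma 3.58.1 voom, RLE factors, no filter, other sets of libraries, a covariate and leaving out libraries. The fit was tested on simulated data. Coordinates are from GENCODE M21, which was not used for counting.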

Additional observations from a re-analysis of the deposited data

Results flagged for a closer look

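Of 121 genes and library measures checked, 11 genes had 1 of the 4 nonescalating libraries standing far from the other 3 by Dixon's test, which chance alone marks in about 1 in 20 groups. Nonescalating replicate 4 stood above the rest for Arc (79.7 CPM), Fos (1.70 CPM) and Ngfr (0.213 CPM). Replicate 3 stood above the rest for Atf3 (4.72 CPM). Replicate 2 stood above the rest for Arrdc2 (2.78 CPM), Ints2 (82.9 CPM), Mog (18.5 CPM), Mtor (359 CPM) and Pvalb (2.27 CPM), and below the rest for Atg2a (46.2 CPM) and Hcn4 (0 CPM).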

How the results depend on the processing

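The count of genes called, 0 by edgeR's quasi-likelihood test, was also 0 with RLE factors, with 6 or 9 libraries, with voom and without any 1 nonescalating library. It was 1 with no filter on low counts (1 higher), 4 with the share of reads outside genes as a covariate (4 higher) and 11 with DESeq2 (5 higher, 6 lower), and over the leave-1-out fits it ran from 0 to 6 (higher 0 to 6, lower 0). Without escalating replicate 1 the 6 were Gm7854, Ttc27, Trp53, Inpp5e, Arl14ep and Usp27x, and without escalating replicate 2 the 1 was Preb, the remaining escalating library being assumed to vary like the other groups. The log2 fold change of Usp27x ran from 1.76 to 2.57 over the leave-1-out fits. The counts of genes that separated the groups, 840 and 590, were 533 and 443 among genes averaging 5 CPM or more, 38 and 14 against all 21 other libraries, and 1242 to 3643 and 798 to 2389 with 1 library left out, fewer libraries being easier to separate. These leave-1-out counts and the comparison with 21 libraries were added after seeing the data.

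With the replicate number as a block the count of genes called was 0, and no other call changed. The numbers do not pair these libraries by any label, and with 2 shared numbers the deviations correlated at 0.28 and -0.26. The deviations of 2 escalating libraries from their own mean mirror each other, so these values cannot show whether the numbers pair libraries.

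Of 118 named genes 104 kept their direction in all 14 alternatives. The other 14 reversed when 1 escalating library was left out, and the cause was not tested. The lowest value, without replicate 1, and the highest, without replicate 2, of the log2 fold change over the leave-1-out fits were Atf2 -0.056 to 0.47, Chat -0.32 to 1.02, Drd2 -0.71 to 1.12, Klf9 -0.15 to 0.82, Mef2d -0.47 to 0.87, Ndufs4 -0.018 to 1.18, Pdyn -0.60 to 1.28, Peg13 -0.26 to 1.34, Penk -0.15 to 0.51, Vcan -0.040 to 0.96 and Wasf3 -0.54 to 1.09. Lowest without replicate 2 and highest without replicate 1 were Cry1 -0.25 to 1.27, Gphn -0.14 to 2.05 and Rps6ka1 -0.73 to 1.47. The median over all tested genes moved from -0.02 to -0.18 without escalating replicate 2, and 30 of 37 list medians changed sign in at least 1 leave-1-out fit.

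With 1 library left out, the difference in library measures (escalating minus nonescalating) ran from -1.98 to 5.96 percentage points for reads outside genes, -0.153 to 0.178 for ambiguous reads, -4.45 to 0.951 for Rn45s and -0.153 to 0.370 for Malat1, from -15.7 to 1469 for genes with a count, and from 8364050.5 to 10166611.3 for gene counts. A level of 0 allows up to 3 counts, between 0.157 and 0.457 CPM in these 6 libraries, and covers counting error only.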

Other observations

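Besides Usp27x, Per2, Trp53 and Srgap1, several genes averaging 5 CPM or more lay above all 21 other immunopurified libraries in both escalating libraries. They are named here after their values were seen. Brf2, a subunit of an RNA polymerase III initiation factor, was at 24.0 and 14.5 CPM, where the highest of the 21 held 9.30 CPM. Nudcd3, a cochaperone of dynein, was at 190 and 216 CPM against a highest value of 157 CPM. Rab8a, a small GTPase of membrane traffic, was at 14 and 15.7 CPM against 12.6 CPM, and Scd1, a fatty acid desaturase, at 11.5 and 22.8 CPM against 10.5 CPM. Xpa, a DNA repair protein, was at 20.6 and 36.3 CPM against 20.2 CPM. None was called by edgeR's quasi-likelihood test.

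Among 10 nuclear and long noncoding RNAs 7 had a positive fold change (median 0.20), and Snhg14 separated the groups at 7.72 to 11 CPM against 21.3 and 11.5 CPM. Among 18 opioid and other neuropeptide genes 12 were positive (median 0.15). Scg3, a granin of secretory vesicles, was at 17 to 27.2 CPM against 39.3 and 28.8 CPM. Nts, the neurotensin precursor, was at 0 to 2.23 CPM against 2.91 and 3.55 CPM. Both escalating values of Nts lay inside the range of the saline libraries without withdrawal, 2.13 to 5.23 CPM. The lower escalating value of Snhg14 also lay inside its saline range, 9.25 to 13.5 CPM.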
